A study of Leucoraja erinaceus with 4 samples.

Results

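In embryos of the little skate, Leucoraja erinaceus, 131 of 23105 assembled features met the count and fold thresholds given below. They were more abundant at stage 33 than at stage 28. At both stages they were less abundant in the synarcual than in the axial skeleton behind it. The synarcual is the fused cartilage block just behind a skate's skull, formed from vertebral elements. Post-synarcual means the more posterior axial skeleton. The study sequenced total RNA from 4 groups of 1 library each: stage 33 synarcual, stage 33 post-synarcual, stage 28 synarcual and stage 28 post-synarcual. The tissue came from males, the labels name no treatment or genotype, and nervous system and axial muscle were taken off by dissection before freezing. The protocol leaves it unclear how many males a library held and can be read to mean that a stage's regions came from the same males. With 1 library per group, a difference between stages or regions and one between individual samples cannot be told apart.

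The members were chosen by measured values from all 4 libraries. A member had at least 200 counts in its highest library, a mean stage fold of 2 or more (stage 33 over stage 28, averaged over the regions) and a region fold of -1 or lower (synarcual over post-synarcual) at stage 33 and at stage 28. Region folds and stage folds are on the log2 scale, so that 2 stands for 4-fold and -1 for 2-fold lower, whereas a value written as 3.50-fold is a plain ratio of scaled counts. The log2 values are differences of log2 CPM, which is a count divided by a library size in units of 1e6, rescaled by the trimmed mean of M values (TMM), with a prior count of 2 added. Because the choice used each of these contrasts, the folds below describe the members and are not tested, and the 95% intervals cover the counting error of 2 libraries and nothing else.

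A feature is a gene of the authors' de novo assembly. The files give it the assembler's identifier and no name. Of these identifiers 0 matched the species' RefSeq gene table, which does not show whether the genes themselves are in it. No sequence of any feature was at hand, so no role can be assigned to a member. For the same reason the labelled tissue could not be checked against its defining markers, nor against those of muscle, nerve or blood. As background, the axial skeleton of skates is made of cartilage, whose cells secrete a collagen and proteoglycan matrix. In cartilaginous fishes the cartilage is not replaced by bone, and in much of the skeleton its surface mineralises later in small tiles called tesserae. In skates and their relatives the vertebral elements nearest the head fuse into the synarcual, while those behind it stay separate. Axial muscle lies along the whole column, and how completely the dissection removed it was not tested.

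The total count ran from 3922525 to 5092346 per library. Of the 5314 features with a highest count of at least 200, 9.97% met the stage threshold and are called late-high here, 530 features in all. At stage 33, 5.72% of the 5314 had a region fold of -1 or lower, at stage 28 6.40% did, and 2.94% did at both stages. The whole rule took 2.47%. Among the 530 late-high features the same region thresholds took 38.1% at stage 33, 38.3% at stage 28 and 24.7% at both, which are the 131 members. The members made up 64.9% of the 202 late-high features lower in the synarcual at stage 33 and 64.5% of the 203 lower there at stage 28. These shares follow from the rule and carry no test.

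Members took a far larger share of the counts at stage 33 than at stage 28, and a larger share in the post-synarcual than in the synarcual. Together they took 8.23% of the counts of the stage 33 synarcual (95% Clopper-Pearson interval 8.21 to 8.26) and 20.8% of those of the stage 33 post-synarcual (20.8 to 20.9). At stage 28 they took 0.325% in the synarcual (0.320 to 0.330) and 1.57% in the post-synarcual (1.56 to 1.58). The share in the post-synarcual at stage 28 was thus below that in either region at stage 33. Without TRINITY_DN41535_c0_g1, the member most counted at stage 33, the shares were 6.24% and 15.9% in the stage 33 synarcual and post-synarcual, against 0.322% and 1.52% at stage 28. Other members were the most counted at stage 28, where they held 21.6% (synarcual) and 14.9% (post-synarcual) of the members' counts. Summed over all members and scaled, the level was 3.50-fold lower in the synarcual at stage 33 (3.49 to 3.52) and 4.65-fold at stage 28 (4.56 to 4.74). In bulk tissue, fewer cells of a type and less RNA per cell cannot be told apart.

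**Figure D1:**
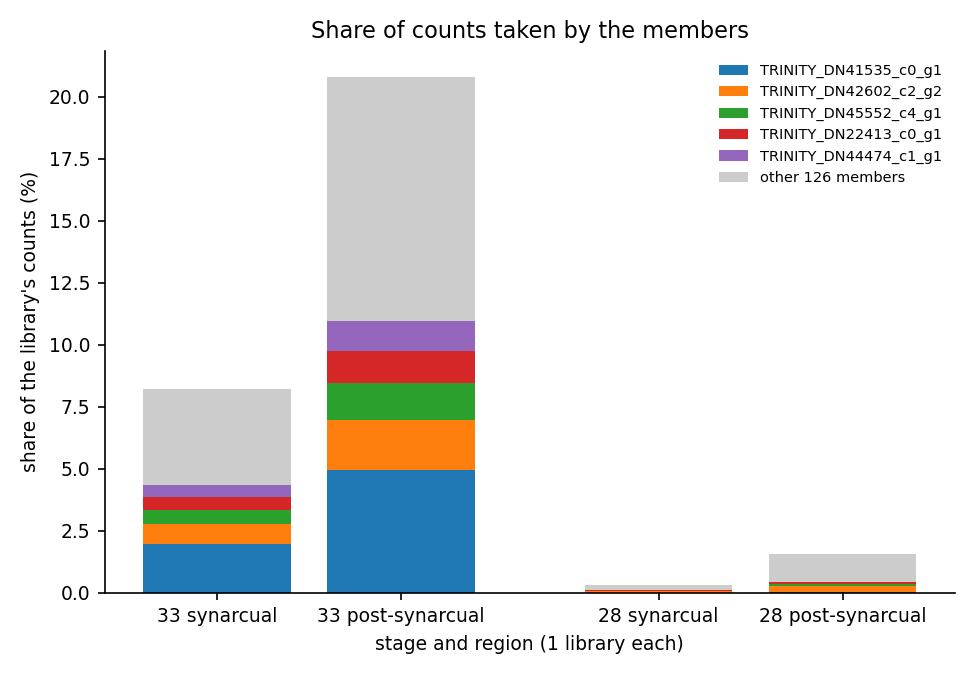
Stacked bars of the percentage of each library's counts that the members took. The 5 members most counted in the stage 33 post-synarcual are in colour and the other 126 in grey. The bars reach 8.23% (synarcual) and 20.8% (post-synarcual) at stage 33, against 0.325% and 1.57% at stage 28.

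Levels between features are compared in TPM, which the authors corrected for length. At 1000 TPM or more stood 13 members of the stage 33 synarcual and 21 of the post-synarcual, against 1 and 3 at stage 28. How many of all features reached that level is not given here. The median member was at 85.7 TPM (synarcual) and 177 TPM (post-synarcual) at stage 33, and at 2.77 and 16.8 TPM at stage 28. Among the 10 features with the highest TPM at stage 33, members numbered 2 (synarcual) and 6 (post-synarcual), against 0 in either region at stage 28. The counts were concentrated in few members: the 10 most counted of each library held 73.0% (synarcual) and 74.2% (post-synarcual) of the members' counts at stage 33, and 65.7% and 60.8% at stage 28.

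The member with the highest level was TRINITY_DN42602_c2_g2, a feature with 4 assembled transcripts. Its stage 33 level was 15458 TPM in the synarcual and 38801 TPM in the post-synarcual, where no feature was higher, against 1093 and 3545 TPM at stage 28. Its counts were 36666 and 102624 at stage 33, against 2923 and 8542 at stage 28, so that it was already abundant early. It was lower in the synarcual by 3.59-fold at stage 33 (3.55 to 3.63) and by 2.98-fold at stage 28 (2.86 to 3.11). Which stage had the larger region difference depended on the scaling: by total counts it was 2.59-fold at stage 33 (2.56 to 2.62) and 3.10-fold at stage 28 (2.98 to 3.24), and in TPM 2.51-fold and 3.24-fold. With TMM scaling, the level was 18.5-fold higher at stage 33 in the synarcual (17.8 to 19.2) and 22.2-fold higher in the post-synarcual (21.8 to 22.7).

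TRINITY_DN27159_c0_g2, of 942 bp, came next at stage 33 with a synarcual level of 8537 TPM and a post-synarcual level of 22753 TPM, against 61.6 and 718 TPM at stage 28. Its counts were 18095 and 53823 at stage 33, against 149 and 1548 at stage 28. Here the region difference was larger early: 3.81-fold lower in the synarcual at stage 33 (3.75 to 3.88) and 10.6-fold at stage 28 (8.96 to 12.6). TRINITY_DN27920_c0_g1, of 619 bp, and TRINITY_DN42602_c2_g2 were the most abundant members at stage 28. TRINITY_DN27920_c0_g1 stood at 7372 and 19757 TPM in the synarcual and post-synarcual at stage 33, against 349 and 2539 TPM at stage 28. Its counts were 8810 and 26579 at stage 33, against 481 and 3110 at stage 28. It was 3.87-fold lower in the synarcual at stage 33 (3.78 to 3.96) and 6.60-fold at stage 28 (6.0 to 7.28).

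**Figure D2:**
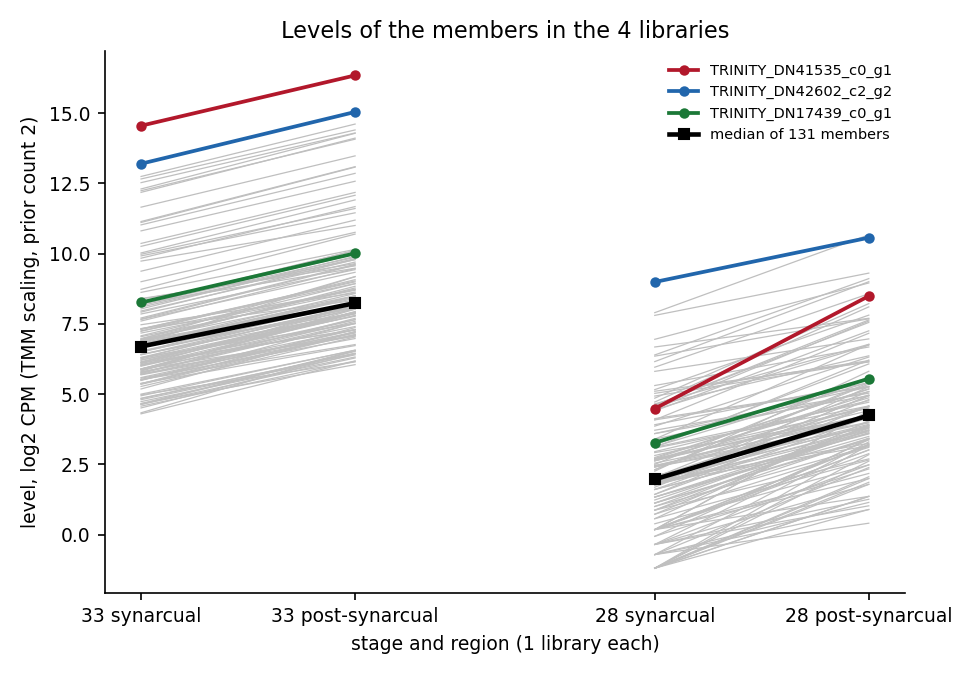
Log2 CPM of each of the 131 members in the 4 libraries, with the regions of a stage joined by a line; grey lines are members, 3 named members are coloured and black squares are the median. The lines of stage 33 run nearly parallel, while those of stage 28 differ in slope.

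The members' stage folds ran from 2.12 to 8.96, with a median of 4.52. The median was 3.54 with libraries scaled by total counts and 3.57 in TPM, and with total counts 333 features in place of 530 were late-high. In 85 members the mean stage fold was at least 4, which is 16-fold, and in 14 it was under 3. The steepest was TRINITY_DN41535_c0_g1, a feature of 6023 bp, with 93633 synarcual and 252871 post-synarcual counts at stage 33, against 126 and 2024 at stage 28. Scaled, it was 1096-fold higher at stage 33 in the synarcual (921 to 1316) and 231-fold higher in the post-synarcual (221 to 242). It alone took 1.99% of all synarcual and 4.97% of all post-synarcual counts at stage 33, against 0.00302% and 0.0516% at stage 28.

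TRINITY_DN44474_c1_g1, of 3779 bp, had the next largest stage fold, with 22992 and 61124 counts in the stage 33 synarcual and post-synarcual, against 47 and 415 at stage 28. It was 722-fold higher at stage 33 in the synarcual (543 to 983) and 273-fold higher in the post-synarcual (248 to 301). In both of these features the stage fold was larger in the synarcual, which started lower. At the other end stood TRINITY_DN38662_c0_g1 and TRINITY_DN39378_c0_g1. The first had 306 and 842 counts in the synarcual and post-synarcual at stage 33, against 81 and 447 at stage 28. It was 5.57-fold higher at stage 33 in the synarcual (4.35 to 7.21) and 3.49-fold higher in the post-synarcual (3.11 to 3.92). The other had 470 and 1334 counts at stage 33, against 142 and 613 at stage 28, and was 4.88-fold higher in the synarcual (4.04 to 5.93) and 4.03-fold higher in the post-synarcual (3.66 to 4.44). All of these stage folds and intervals hold for TMM scaling only, and the rises were smaller in TPM. TRINITY_DN38662_c0_g1 stood at 32.3 (synarcual) and 80.4 TPM (post-synarcual) at stage 33, against 7.59 and 46.8 TPM at stage 28. For TRINITY_DN39378_c0_g1 the levels were 51.2 and 131 TPM, against 13.7 and 66.3 TPM.

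Region folds were narrowly spread at stage 33 and widely at stage 28. At stage 33 they ran from -2.37 to -1.0, with a median of -1.74 and a middle range, from the first to the third quartile, of -1.86 to -1.56. At stage 28 they ran from -4.39 to -1.02, with a median of -2.30 and a middle range of -3.03 to -1.73. At stage 33, 95 of the 131 members lay between -2 and -1.5, against 29 at stage 28. A log2 region fold of -2 or lower was reached by 11 members at stage 33 and by 82 at stage 28, and one of -3 or lower by 0 and 35. The prior count in these log2 values shrinks folds built on few counts, mainly those of stage 28. Plain ratios there can therefore be larger. Both distributions are truncated at -1 by the rule.

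**Figure D3:**
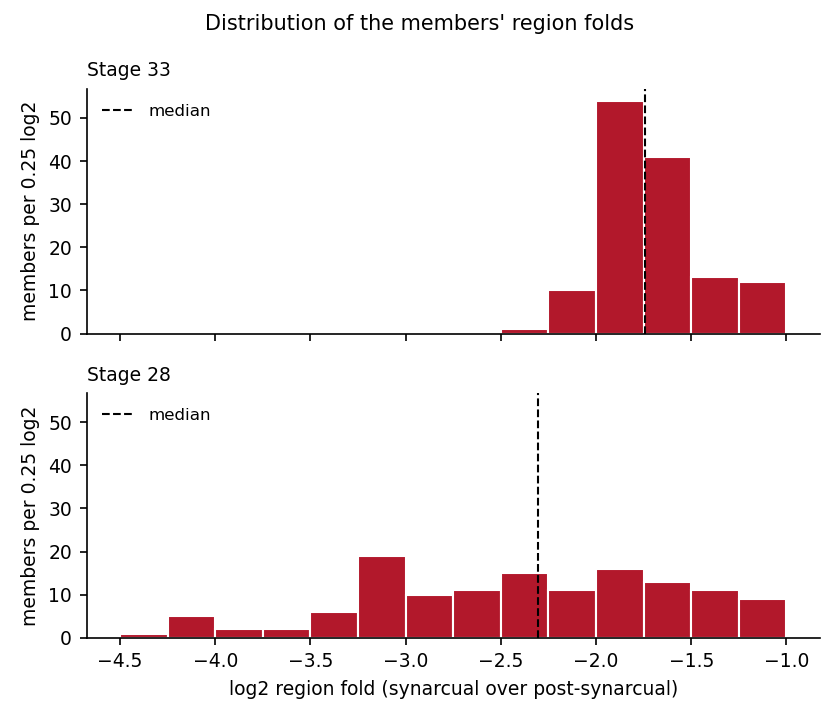
Number of members per bin of log2 region fold (synarcual over post-synarcual) at stage 33, above, and at stage 28, below; dashed lines are the medians, -1.74 and -2.30. At stage 33 the members crowd between -2 and -1.5, and at stage 28 they spread down to -4.39.

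Many members had few counts at stage 28: under 10 were found for 42 members in the synarcual and for 4 in the post-synarcual. All 131 had at least 75 counts in both stage 33 libraries. Among the 25 members with at least 100 counts in every library, the region folds still had an SD across members of 0.281 at stage 33 and 0.874 at stage 28. The median counting error of a single fold in these 25 was 0.0274 at stage 33 and 0.118 at stage 28, on the same log2 scale. For these members the spread at each stage was therefore wider than counting error, and at stage 28 about as wide as in the full set, whose SD was 0.798. Across the 25 members the region folds of both stages had a Pearson r of 0.62 and a Spearman rho of 0.57, as a description of features that share the same 4 libraries and the same truncation.

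The stage 33 region folds lay close together in the 10 most counted members, and less so in the 20 most counted, where they ran from -1.98 to -1.53. In the 10 with the most counts in the stage 33 post-synarcual, the stage 33 region fold lay between -1.98 and -1.74, whereas the stage 28 region fold lay between -4.01 and -1.5. Their stage folds ran from 4.01 to 8.96, so that features with very different stage folds had nearly the same regional ratio at stage 33. Other late-high features share this ratio: 125 of the 530 had a stage 33 region fold from -2 to under -1.5, and 95 of these were members. The remaining 30 missed the stage 28 threshold, with a median stage 28 fold of -0.36, and 22 of them were below 0.

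**Figure D4:**
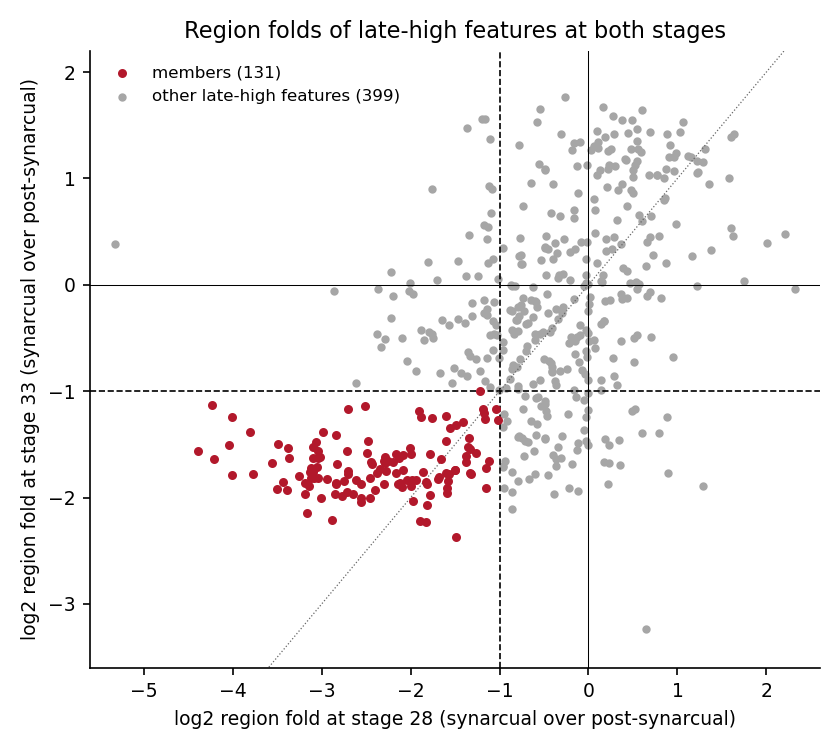
Each point is a late-high feature, with its log2 region fold at stage 28 on the horizontal and at stage 33 on the vertical axis; the 131 members are red, the other 399 grey, dashed lines mark -1 and the dotted line marks equal folds. Members form a flat band around -1.74 at stage 33 that extends to -4.39 at stage 28.

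The members closest to the medians of all 3 folds were TRINITY_DN17439_c0_g1, of 821 bp, and TRINITY_DN43302_c0_g2, of 3392 bp. TRINITY_DN17439_c0_g1 had 1194 and 3137 counts in the synarcual and post-synarcual at stage 33, against 53 and 261 at stage 28. It was 3.37-fold lower in the synarcual at stage 33 (3.15 to 3.60) and 5.03-fold at stage 28 (3.73 to 6.89). TRINITY_DN43302_c0_g2 had 247 and 611 counts at stage 33, against 10 and 58 at stage 28. It was 3.17-fold lower in the synarcual at stage 33 (2.73 to 3.69) and 5.92-fold at stage 28 (3.0 to 13.0). The interval of the more deeply counted TRINITY_DN17439_c0_g1 was the narrower at both stages; the median member had 20 and 104 counts at stage 28.

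The rule asked for 2-fold on these same contrasts, so the interval counts that follow describe depth and are no support for a difference. They hold for TMM scaling only. With total counts the members' median log2 region fold at stage 33 was -1.27, against -1.74 with TMM. The interval of the ratio lay wholly beyond 2-fold in 124 members at stage 33, in 108 at stage 28 and in 103 at both. It lay wholly beyond 4-fold in 2 members at stage 33 and in 51 at stage 28. The interval included equality in 0 members at stage 33 and in 3 at stage 28. For those 3, counting error alone left the direction at stage 28 open, although the fitted fold met the rule.

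Among the 89 members with at least 10 counts in every library, TRINITY_DN41535_c0_g1 was lowest in the synarcual at stage 28. Its level in the synarcual was 3.46-fold lower at stage 33 (3.44 to 3.49) and 16.4-fold at stage 28 (13.7 to 19.8). TRINITY_DN34177_c0_g1, of 2743 bp, followed with 785 and 1963 counts in the synarcual and post-synarcual at stage 33, against 25 and 314 at stage 28. In the synarcual it was 3.21-fold lower at stage 33 (2.95 to 3.49) and 12.8-fold at stage 28 (8.53 to 20.1). Both features thus lay near the members' median ratio at stage 33, and among these 89 they also had the largest narrowing between the stages, with stage 33 minus stage 28 differences of 2.22 and 1.88 in region fold.

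Among the same 89 members, the lowest region folds at stage 33 belonged to TRINITY_DN36667_c0_g1, of 1841 bp, and TRINITY_DN44540_c6_g1, of 2399 bp. TRINITY_DN36667_c0_g1 had 436 and 1760 counts in the synarcual and post-synarcual at stage 33, against 84 and 236 at stage 28. It was 5.17-fold lower in the synarcual at stage 33 (4.66 to 5.76) and 2.87-fold at stage 28 (2.23 to 3.73), intervals that do not overlap. Its region fold was thus farther from 0 at stage 33, by -0.87, against the direction of most members. By total counts it was 3.74-fold lower at stage 33 (3.36 to 4.16) and 2.98-fold at stage 28 (2.32 to 3.88), intervals that overlap, with a difference in region fold of -0.34. TRINITY_DN44540_c6_g1 had 77 and 285 counts at stage 33, against 18 and 72 at stage 28. It was 4.74-fold lower at stage 33 (3.68 to 6.19) and 4.09-fold at stage 28 (2.41 to 7.28), intervals that overlap, and the direction of its difference between stages turned with total counts, -0.33 with TMM and 0.23 with total counts. TRINITY_DN26850_c0_g1, of 1704 bp, also had the region fold farther from 0 at stage 33, by -0.76, or by -0.23 with total counts. Its counts were 814 and 2389 at stage 33, against 98 and 216 at stage 28, a 3.76-fold lower level in the synarcual at stage 33 (3.47 to 4.08) and a 2.25-fold lower level at stage 28 (1.77 to 2.89).

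Over all members, the region fold was closer to 0 at stage 33 in 99 and farther from 0 in 32, with a median stage 33 minus stage 28 difference of 0.61. The rule set the same threshold of -1 at both stages, so it did not by itself favour narrowing or widening. It truncated both folds at that threshold, which limits the size of the difference. The folds reached down to -2.37 at stage 33 and to -4.39 at stage 28. The median difference was 0.32 in all 530 late-high features. It was -1.13 in the 71 below -1 at stage 33 alone and 1.33 in the 72 below -1 at stage 28 alone, which the rule left out. By arithmetic the same 99 had a larger stage fold in the synarcual than in the post-synarcual: the medians of the stage fold were 4.86 (synarcual) and 4.10 (post-synarcual). In the 25 members with at least 100 counts in every library, 17 had the smaller region fold at stage 33, with a median difference of 0.52. Both the size of this narrowing and the division of the members depend on the scaling. By total counts the median difference was 1.20, with 128 members closer to 0 at stage 33 and 3 farther from it, and in TPM the division was 126 and 5. Total counts also moved the median stage 33 region fold of all kept features to 0.45. No test of the difference between stages can be made with 1 library per group.

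With TMM scaling, 43 members narrowed by 1 or more, 56 by less than 1, and 32 widened. The sizes of these groups depend on the scaling: by total counts 78 narrowed by 1 or more and 3 widened, and in TPM 66 and 5. The groups had similar region folds at stage 33, with medians of -1.68, -1.75 and -1.77 in that order. At stage 28 their medians were -3.12, -2.23 and -1.5, an order that follows from the way they were divided. Their median stage folds were 5.12, 4.33 and 3.94, and their median lengths 1907, 2334 and 1917 bp. In TPM, the median stage 28 synarcual level was 1.89 in the 43, 2.24 in the 56 and 7.32 in the 32. The stage 28 synarcual count enters the division, so the orders of this level and of the stage fold follow from it in part. Low counts were most frequent in the first group, in which 20 of the 43 had under 10 counts in the stage 28 synarcual, against 18 of the 56 and 4 of the 32.

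In 10 members no read was counted in the stage 28 synarcual, which allows up to 0.521 CPM for 3 counts. Of the 530 late-high features 25 had no count there, and of the 5314 with at least 200 counts also 25. The rule favours features that are low in that library. The 10 members had between 8 and 49 counts in the stage 28 post-synarcual. Against a floor of 3 counts they were at least 2.72-fold to at least 16.7-fold lower in the stage 28 synarcual. These bounds take the post-synarcual count as exact; the lower 95% limits that also carry its counting error ran from 1.74-fold to 13.1-fold. With these 10 set at their bound, the median stage 28 region fold of all members was -2.29. At stage 33 the 10, 4 of them from 1 assembly cluster described below, had a median region fold of -1.65, against -1.75 in the other 121. The shortest member, TRINITY_DN31370_c0_g1, of 508 bp, is one of them, with 159 and 501 counts in the synarcual and post-synarcual at stage 33, against 0 and 12 at stage 28.

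The longest member was TRINITY_DN44902_c0_g2, of 23120 bp, with 689 synarcual and 1176 post-synarcual counts at stage 33, against 4 and 117 at stage 28. It was 2.19-fold lower in the synarcual at stage 33 (1.99 to 2.41) and 29.9-fold at stage 28 (11.4 to 111). By total counts it was 1.58-fold lower at stage 33 (1.44 to 1.74) and 31.1-fold at stage 28 (11.8 to 116). Its stage 33 region fold was then -0.66, and -0.58 in TPM, so that it met the stage 33 threshold with TMM but with neither of these. The level of this feature was low for its counts, at 10.5 and 16.2 TPM at stage 33, against 0.050 and 1.77 TPM at stage 28. The median length was 2081 bp in the members, 2338 bp in all late-high features and 2661 bp in all 5314 features with at least 200 counts.

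Members also fell into shared assembly clusters, which the rule did not use. The assembler's cluster number, the DN part of an identifier, was shared by 24 members in 11 clusters, and the 131 members came from 118 clusters. The like share over all features is not given here, so whether 24 is many or few cannot be told. Features of 1 cluster can be pieces or copies of the same gene, among which reads may be split, so the 131 are not 131 independent genes and the counts of these 24 are uncertain. Within the 11 clusters, the range of region folds had a median of 0.14 at stage 33 and 0.61 at stage 28. Over all 131 members the middle range spanned 0.30 at stage 33 and 1.30 at stage 28. That is an unlike measure, since most of the clusters held 2 members and the full range of so few values tends to be small. How alike members of a cluster are cannot be read from this comparison.

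Cluster DN40024, singled out after its values were seen, held 4 members. TRINITY_DN40024_c3_g1 had 288 and 664 counts in the synarcual and post-synarcual at stage 33, against 0 and 49 at stage 28. TRINITY_DN40024_c2_g1 had 231 and 514 at stage 33, against 0 and 38 at stage 28. TRINITY_DN40024_c1_g1 had 199 and 407 at stage 33, against 0 and 32 at stage 28, and TRINITY_DN40024_c0_g1 97 and 200, against 0 and 17. The 4 features share the absence of any count in the stage 28 synarcual. Summed, they had 815 and 1785 counts at stage 33, a 2.81-fold lower level in the synarcual (2.58 to 3.05), and 0 and 136 counts at stage 28, at least 46.3-fold lower against a floor of 3 counts for the sum. The lower 95% limit with the counting error of the post-synarcual sum was 37.1-fold.

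**Figure D5:**
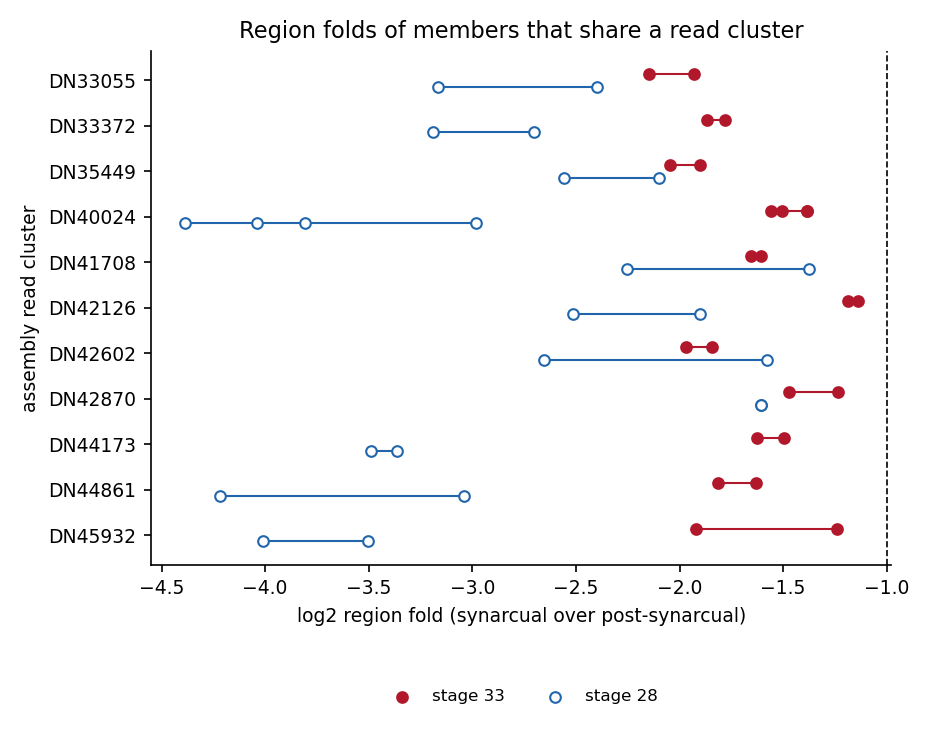
Log2 region folds (synarcual over post-synarcual) of the 24 members that share an assembly cluster, 1 row per cluster, with filled red points for stage 33, open blue points for stage 28 and lines from lowest to highest; the dashed line is the threshold of -1. Members of a cluster lie from 0.0459 to 0.681 apart at stage 33. At stage 28 they lie up to 1.40 apart, and there the members at 0 counts depend on the prior count.

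Transcript usage is a further readout that the rule did not use. The length the authors' files give for a feature is averaged over its transcripts by their abundance, so it can differ between libraries where a feature has several. Of the members, 34 had more than 1 transcript, and in 13 of these the longest of the 4 lengths was over 1.1 times the shortest. That is 38.2% of the 34, against 37.8% of the 143 late-high features and 30.3% of the 1483 features with at least 200 counts that had several transcripts. With at least 30 counts in every library, 7 of the 13 remained. That is 35.0% of the 20 members with several transcripts at this depth. The like shares were 34.7% of 101 late-high features and 29.9% of 1391 features with at least 200 counts. The largest move among those 7, singled out after its values were seen, was that of TRINITY_DN44861_c3_g1, which has 4 transcripts. Its length at stage 33 was 5511 bp in the synarcual and 5580 bp in the post-synarcual, against 3466 and 3543 bp at stage 28. The lengths thus differed by stage and hardly by region. Its counts were 5133 and 14093 at stage 33, against 137 and 1121 at stage 28. TRINITY_DN45552_c4_g1, with 2 transcripts and 26776 and 76113 counts at stage 33 (408 and 2883 at stage 28), also had the longer lengths at stage 33, 2401 and 2453 bp, against 2181 and 2177 bp at stage 28. The opposite held for TRINITY_DN32759_c0_g1, at 1144 and 1120 bp at stage 33, against 1499 and 1346 bp at stage 28, with 457 and 1391 counts at stage 33 and 31 and 96 at stage 28.

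Compared with other late-high features, the members had a larger median stage fold and a lower median level in the stage 28 synarcual. Late-high features below -1 at stage 33 alone numbered 71, those below -1 at stage 28 alone 72, and those below -1 at neither stage 256. The median stage fold was 4.52 in the members, against 3.49, 3.47 and 2.99 in these 3 classes. The median level in the stage 28 synarcual was 2.77 TPM in the members, against 8.94, 6.68 and 10.6 TPM. In the stage 33 post-synarcual it was 177 TPM, against 112, 164 and 51.6 TPM. In the stage 28 post-synarcual the members, at 16.8 TPM, were not the lowest, against 12.1, 27.5 and 9.56 TPM. Of the members, 13 were among the 50 highest TPM values of the stage 33 post-synarcual, which is 9.92% of them, against 10, 8 and 6 features or 14.1%, 11.1% and 2.34% of the other classes. The stage fold and levels enter the rule or are built from the same libraries, so these differences are a description. The share of features with a single transcript, which is separate from the rule, was 74.0% in the members and 72.1% in all 5314.

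The thresholds cut through a continuous range of values. At stage 28, TRINITY_DN31985_c0_g1 lay just inside, with a region fold of -1.02 and 586 and 1168 counts in the synarcual and post-synarcual, and TRINITY_DN25987_c0_g1 just outside, with -0.97 and 4 and 10 counts. At stage 33, TRINITY_DN45850_c1_g1 lay just inside at -1.0, with 627 and 981 counts, and TRINITY_DN36251_c0_g1 just outside at -0.99, with 146 and 227 counts. For the stage fold, TRINITY_DN38662_c0_g1 lay just inside at 2.12 and TRINITY_DN38939_c0_g1 just outside at 1.90, with 166 and 417 counts at stage 33, against 51 and 253 at stage 28.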

How the data were processed

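Per the file headers, each deposited table gives a feature's estimated count (the expected count of RSEM), its TPM and its FPKM. The submitters' processing notes name Bowtie2 and RSEM. Their versions, assembly settings and filters: not given in the sources used here. Deposited TPM is corrected for length and was used for levels between features, and the deposited FPKM was not used. The table of the whole series held the same estimated counts as the 4 per-library files, with a largest difference of 0.

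Estimated counts were rounded (1.66% to 1.89% of values per library were not whole). edgeR 4.0.16 under R 4.3.3 gave TMM factors from 14668 features, those reaching 10 counts in 2 or more libraries. The factors were 0.831 (synarcual) and 0.599 (post-synarcual) at stage 33, against 1.39 and 1.44 at stage 28. Each kept total times its factor was the effective size used for all features. Printed folds are ratios of counts divided by these sizes, with exact 95% Clopper-Pearson intervals (scipy 1.17.1). A count of 0 allows up to 3 counts. Reads carry no molecular identifiers, and the intervals and floors cover only counting error. The unstranded kit does not separate overlapping transcripts on opposite strands. The rule was checked on simulated counts that held counting error only. The planted features came from those with at least 100 counts in every library, deeper than most members. That check does not cover variation between animals or members with few counts.

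No test was run, because each group has 1 library and the rule used every contrast. The members, and the comparisons described, were chosen with earlier results of these data known. Members were named at the extremes and the centre of level, length, stage fold, region fold and its difference between stages, and at the thresholds. Features said to be singled out, the cluster and transcript comparisons, and the features of shared clusters in the closing section, were added after the values were seen. The planned lists of marker genes were not applied, since no feature carries a gene name.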

Additional observations from a re-analysis of the deposited data

How the results depend on the processing

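With the other scalings and settings, the number of members ran from 99 in deposited TPM (97 of them among the 131) to 137 with a prior count of 0.5, and total counts gave 101, of which 98 were among the 131. DESeq2 1.42.0 size factors, upper-quartile factors and TMM without a filter gave 132, 131 and 130. Thresholds moved it to 177 at a highest count of 50, 95 and 196 at region folds of -1.5 and -0.5, and 117 at a stage fold of 3. Summing counts by assembly cluster, or by its components (the c part of an identifier), first, chosen after seeing the data, gave 105 and 121. Late-high features numbered 333 with total counts.

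The members' median region fold at stage 33 was -1.27 with total counts and -1.22 in TPM, and at stage 28 -2.42, -2.11 and, with a prior count of 0.5, -2.49. The median stage fold was 3.54 with total counts, 3.57 in TPM, 4.65 with a prior count of 0.5 and 4.01 in members with at least 100 counts in every library. The median stage 33 minus stage 28 difference was 1.20, 1.0 and 0.79 with total counts, TPM and a prior count of 0.5. The number of members whose region fold was farther from 0 at stage 33, examined after seeing the data, was 3 with total counts and 5 in TPM, against 27 to 33 under the other alternatives and 32 as reported. The other alternatives moved each median by under 0.1. Every median kept its sign under each alternative run. For the region and stage folds the rule had all but fixed that sign, so this is no support for them. The difference between stages could change sign, but both region thresholds also limited its size, so it is not free of the rule. Relative to the median of all kept features, which total counts and TPM moved to 0.45 at stage 33, the members' stage 33 fold was -1.72 and -1.67, against -1.75 as reported. No paired analysis was possible because each group has 1 library. Stage 28 depth limits the folds of the 42 members with under 10 counts in the synarcual.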

Other observations

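The assembly clusters of the members also held 60 features that were not members, in 31 clusters, and they did not all follow the members. Of the 43 with at least 50 counts in some library, 6 met every fold threshold and missed the rule only by having under 200 counts. Among the 20 with at least 200 counts, 1 had a stage fold of 2 or more and 8 had one below 0. Of all 5314 features with at least 200 counts, 9.97% had a stage fold of 2 or more, and their median stage fold was -0.06. Features at that depth that met every threshold are members by definition, so these counts do not set the clusters apart from other features. For the 6 of 43 the like share over all features is not given here. Cluster DN42602, singled out after its values were seen, holds both kinds. Its member TRINITY_DN42602_c2_g5 had 1652 and 5040 counts in the synarcual and post-synarcual at stage 33, against 203 and 1262 at stage 28. In the same component, TRINITY_DN42602_c2_g3 was the opposite by stage, with 10975 and 6945 counts at stage 33, against 42980 and 35985 at stage 28. With TMM scaling its stage fold was -1.45, and its region folds were small, 0.30 at stage 33 and 0.23 at stage 28. Its level was 2515 and 1435 TPM at stage 33, against 8707 and 8165 TPM at stage 28. TRINITY_DN42602_c2_g7 had a stage fold of 4.5, with 4276 and 14413 counts at stage 33, against 428 and 762 at stage 28. Region folds of -2.11 (stage 33) and -0.86 (stage 28) put it just short of the stage 28 threshold. Reads that fit several of these features may have been shared out among them, so the levels of the cluster's features are uncertain.

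Cluster DN44861 held 2 members and 2 of the 6 features that missed only the count threshold. TRINITY_DN44861_c0_g1 had 57 and 198 counts in the synarcual and post-synarcual at stage 33, against 1 and 8 at stage 28, and TRINITY_DN44861_c1_g1 had 56 and 106, against 1 and 8.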
